A study of Mus musculus with 36 samples.

Results

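Gastrocnemius, a calf muscle of mixed but mostly fast fibres, was compared between mice lacking Bmal1 in the liver and wild-type mice at zeitgeber time (ZT) 0, the hour at which the lights come on. The comparison holds 6 of the 36 samples of the series: 3 biological replicates labelled Bmal1hep-/- and 3 labelled WT, each at ZT0, chosen by these labels. The other 30 samples are the same 2 genotypes at 5 other times of day, and they enter below as the measure of spread and as a point of comparison. The labels call the deletion liver-specific and name no Cre driver, age, sex, feeding schedule or control allele. Polyadenylated RNA was sequenced, and the values are FPKM, a read density scaled to transcript length and library size, in the table deposited by the authors. The labels call the replicates biological, and do not say whether each was 1 animal.

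BMAL1, the product of the gene listed as Arntl, pairs with CLOCK to switch on the period and cryptochrome genes and the REV-ERB nuclear receptors, whose products then repress BMAL1 and CLOCK or their genes. Most tissues carry such a clock, and the liver clock also times the release of glucose, lipids and secreted proteins that reach muscle through the blood. ZT0 closes the active, feeding phase of a nocturnal animal. The comparison asks which muscle mRNAs differ at that hour when the clock of another organ has been removed.

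The 6 samples had like totals, and 3 of them stood apart in the respects given here. FPKM sums ran from 575260 to 655055, and 10575 to 10854 genes reached 1 FPKM. The absolute depth is unknown because no read totals were given, but the steps between low values put the shallowest sample at 77.4% of the deepest. Pearson's r across genes was 0.987 to 0.992 between replicates and 0.983 to 0.990 between samples of different genotype. The tissue label was checked against 8 skeletal muscle fibre genes, whose summed FPKM ranged from 80132 to 87817 among WT samples and from 91300 to 98673 among Bmal1hep-/- samples. These ranges do not overlap. Of the 8 genes, 7 were higher in Bmal1hep-/-, and in 4 every Bmal1hep-/- value lay above every WT value (50%, beside 6.55% of all genes). FPKM depends on the other transcripts of a sample. The part of these fibre levels in the lower values of other cell types below was not tested. Myh4, the myosin of the fastest fibres, was listed at 0 FPKM in all 6 samples, so its level cannot be read from this table. The hepatocyte gene Alb stood at 5.28 FPKM in Bmal1hep-/- replicate 2 and at or below 0.312 FPKM in the other 5 samples. The adipocyte gene Cfd stood at 189 FPKM in Bmal1hep-/- replicate 3 and between 23.9 and 64.7 FPKM in the other 5. In WT replicate 1 levels leaned towards long transcripts, as given beside the matrix genes.

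No muscle gene passed the test at ZT0. Differences are given as Bmal1hep-/- minus WT on the scale of log2(FPKM + 1), which understates the change of low genes, and come from limma fitted to all 36 samples. Of the 10837 genes averaging 1 FPKM or more over the series, 0 (0%) had a Benjamini-Hochberg adjusted p under 0.05, and the smallest adjusted p was 0.999848. At an unadjusted p under 0.05 there were 129 higher genes (1.19%) and 109 lower genes (1.01%), and without WT replicate 1 there were 72 and 82. The same fit gave between 265 and 1364 such genes at each of the other 5 times. The typical difference was small: half-widths of the 95% interval had a median of 0.30, the median size of a difference was 0.09, and the median over all genes was 0.01. A looser description counts genes whose 3 values in 1 genotype all lie beyond the 3 values in the other, called separated below. There were 710 separated genes higher in Bmal1hep-/- (6.55%) and 627 lower (5.79%). Fitting the 6 ZT0 samples alone gave 325 higher and 393 lower genes at an unadjusted p under 0.05, again with 0 past the adjusted threshold, and a smallest adjusted p of 0.158. The median SE was 0.145 in the fit of 36 samples and 0.105 in the fit of 6. Each SE below is from the fit of 36, whose spread comes mostly from the other times. The values that follow describe these samples and are not called changes.

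**Figure D1:**
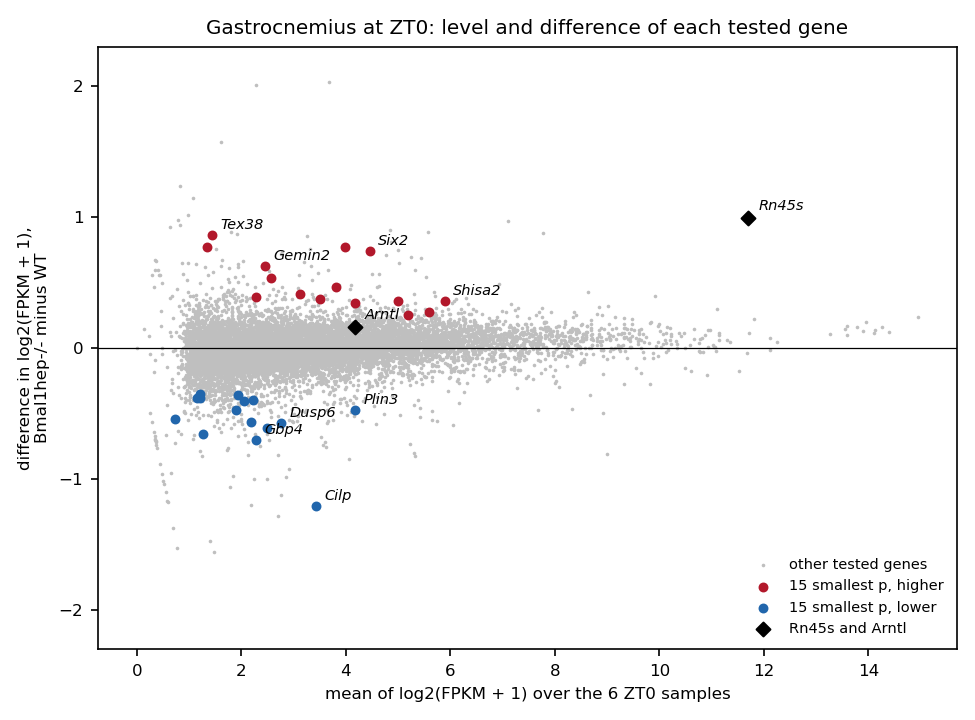
Each point is 1 of the tested genes, with its mean log2(FPKM + 1) over the 6 ZT0 samples on the x axis and its difference, Bmal1hep-/- minus WT, on the y axis. Most genes lie close to 0, the 30 named genes of smallest p lie between -1.21 and 0.86, and Rn45s stands at 0.99. Snora81, at -8.92, lies outside the axis.

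The clock genes of muscle stood at like levels in both genotypes. Arntl read 15.4, 17.6 and 15.2 FPKM in WT and 18.2, 17.7 and 18.2 FPKM in Bmal1hep-/-. All 3 Bmal1hep-/- values lay above the WT values, by a narrow margin. The difference was 0.16 ± 0.16 (SE from the fit of 36 samples, n = 3 per group) with a 95% interval of -0.18 to 0.49. The deletion was made in liver, so Arntl in muscle does not check it. Its partner Clock differed by 0.09 ± 0.17. Among the repressors, Per1 differed by 0.04 ± 0.20, Per2 by -0.12 ± 0.18, Per3 by 0.00 ± 0.14, Cry1 by 0.03 ± 0.12 and Cry2 by 0.13 ± 0.11. Nr1d1, which encodes REV-ERBα, read 77.2, 57.3 and 58.4 FPKM in WT and 58.9, 86.3 and 88.9 FPKM in Bmal1hep-/-. These values overlapped, and its difference of 0.27 ± 0.17 was the highest of the list. Nr1d2, its paralog, differed by 0.02 ± 0.15.

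The activating nuclear receptor Rora read 12.0, 10.9 and 11.5 FPKM in WT against 12.8, 13.1 and 13.7 FPKM in Bmal1hep-/-. Hlf, an output transcription factor of the clock, read 3.16, 3.23 and 3.23 FPKM in WT and 4.64, 3.79 and 3.58 FPKM in Bmal1hep-/-. Rora and Hlf, like Arntl, were separated, while the related output factors Dbp (-0.11 ± 0.28) and Tef (0.00 ± 0.10) and their antagonist Nfil3 (0.21 ± 0.17) overlapped. The repressors Bhlhe40 (0.14 ± 0.16) and Bhlhe41 (0.03 ± 0.13) overlapped as well, and so did Ciart, which blocks the CLOCK and BMAL1 pair (-0.19 ± 0.22). Counted by sign whatever the SE, 15 of 18 tested clock genes were higher (83.3%, beside 52.5% of all genes) and 3 lower. The 3 separated genes were all higher (16.7%, beside 6.55% of all genes), and 0 had an unadjusted p under 0.05 in limma. Their median was 0.05, beside 0.01 over all genes. It was 0.12 without WT replicate 2 and 0.03 without Bmal1hep-/- replicate 1. Npas2, the 19th gene of the list, was below the filter on level.

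**Figure D2:**
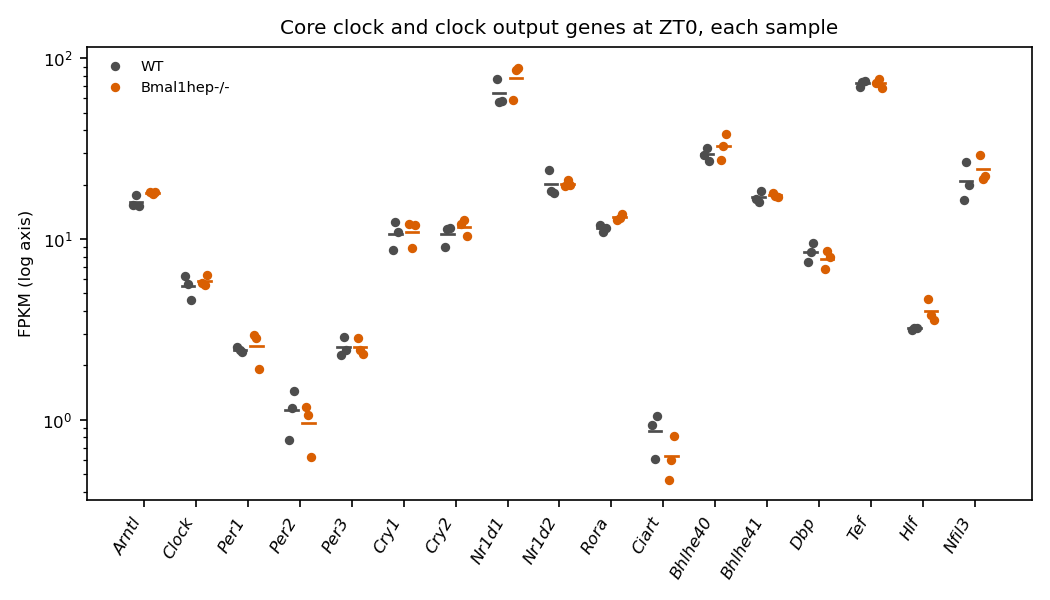
Points are the FPKM values of each ZT0 sample for 17 clock genes on a log axis, WT in grey and Bmal1hep-/- in orange, with a bar at each group's mean. The genotypes overlap in 14 of the 17 genes, and Arntl, Rora and Hlf are separated.

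The 15 higher genes of smallest p were separated in every case, with differences of 0.25 to 0.86. They had to stand out because they were picked by p. Gemin2, a subunit of the complex that assembles spliceosomal RNPs, read 3.07, 3.02 and 4.13 FPKM in WT and 5.31, 6.14 and 5.82 FPKM in Bmal1hep-/-, a difference of 0.62 ± 0.16 (adjusted p = 0.999848 in limma). Irf2bp2, a transcriptional corepressor, read 10.7, 11.5 and 10.5 FPKM in WT and 14.2, 16.9 and 15.3 FPKM in Bmal1hep-/-. The homeobox factor Six2 read 15.3, 13.4 and 19.9 FPKM in WT and 23.8, 32.01 and 27.004 FPKM in Bmal1hep-/-. In all 3 genes the lowest Bmal1hep-/- sample stood clear of the highest WT sample. Shisa2, which in frogs retains receptors for FGF and Wnt in the endoplasmic reticulum, read 52.7, 47.0 and 54.7 FPKM in WT and 64.0, 64.0 and 70.3 FPKM in Bmal1hep-/-. Fgfbp3, an FGF-binding protein, differed by 0.77 ± 0.20 from a low level, ranging from 0.931 to 0.977 FPKM among WT samples and from 1.40 to 2.93 among Bmal1hep-/- samples.

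Among the rest, Tiam1, which activates the GTPase Rac, differed by 0.54 ± 0.18, the adhesion receptor Adgrl1 by 0.42 ± 0.13, Tmem100, a membrane protein of endothelium, by 0.77 ± 0.27, and Mtss1l, a membrane-bending protein, by 0.36 ± 0.11. Gorasp2, which stacks the Golgi, differed by 0.27 ± 0.09, and Pecr, a peroxisomal enoyl-CoA reductase, by 0.34 ± 0.11. Others were Prune (0.25 ± 0.08), Tbc1d19 (0.37 ± 0.13) and Tex38 (0.86 ± 0.29). Of the 15 genes, 13 were also higher in the mean of the other 5 times, which share no sample with ZT0. The sign was the same for 56.9% of all genes. It was the same for 78.3% of the 129 higher genes at an unadjusted p under 0.05 in limma.

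Lower genes reached larger sizes, from -1.21 to -0.35 over the 15 of smallest p, all of them separated. Dusp6, the phosphatase that turns off ERK, read 8.42, 6.49 and 6.94 FPKM in WT and 3.68, 5.01 and 5.06 FPKM in Bmal1hep-/-, a difference of -0.57 ± 0.15 (adjusted p = 0.999848 in limma). Plin3, a coat protein of lipid droplets, read 20.4, 20.6 and 20.1 FPKM in WT and 15.3, 13.2 and 14.7 FPKM in Bmal1hep-/-. The gap between its groups was wider than the spread within either. Cilp, a matrix protein of cartilage and tendon, read 14.7, 12.9 and 19.02 FPKM in WT and 5.30, 8.48 and 4.92 FPKM in Bmal1hep-/-, a difference of -1.21 ± 0.43. Fmo2, a flavin monooxygenase, differed by -0.61 ± 0.22 and the collagen Col20a1 by -0.35 ± 0.12. The glycosyltransferases B3gnt9 and Ggta1 differed by -0.47 ± 0.13 and -0.41 ± 0.14, the potassium-chloride cotransporter Slc12a7 by -0.36 ± 0.12, and the inositol phosphatase Synj2 by -0.40 ± 0.14. Zfp385b, Rnf135 and Cep95 stood near 1 FPKM and differed by -0.54, -0.38 and -0.38. The last 3 of the 15 were interferon-inducible GTPases. Of the 15, 10 were also lower in the mean of the other times. The sign was the same for 67.9% of the 109 lower genes at an unadjusted p under 0.05 in limma, and for 56.9% of all genes.

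Interferons switch on GTPases that attack pathogen vacuoles, the immunoproteasome, and the machinery that loads peptides on class I molecules. Their promoters often hold sites for STAT and IRF factors, and the RefSeq windows around the start of 3 genes that were lower at ZT0 are shown here for that reason (GRCm38.p6, 5′ to 3′). Capitals mark GAAANNGAA on either strand, read as TTCNNTTTC on the other, or TTCNNNGAA, which reads the same on both strands.
Gbp2 promoter, chr3:142620413-142620712, plus strand: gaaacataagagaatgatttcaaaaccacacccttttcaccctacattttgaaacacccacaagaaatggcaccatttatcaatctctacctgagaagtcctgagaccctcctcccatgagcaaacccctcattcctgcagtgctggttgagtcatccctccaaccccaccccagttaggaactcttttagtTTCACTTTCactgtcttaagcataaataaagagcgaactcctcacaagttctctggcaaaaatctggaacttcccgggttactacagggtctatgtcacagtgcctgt
Tgtp1 promoter, chr11:48992197-48992496, minus strand: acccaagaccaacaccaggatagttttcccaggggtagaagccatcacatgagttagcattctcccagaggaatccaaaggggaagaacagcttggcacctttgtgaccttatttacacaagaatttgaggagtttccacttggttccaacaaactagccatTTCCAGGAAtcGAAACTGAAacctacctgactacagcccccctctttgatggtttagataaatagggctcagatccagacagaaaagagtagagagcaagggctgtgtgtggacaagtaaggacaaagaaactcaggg
Psmb8 promoter, chr17:34197945-34198244, plus strand: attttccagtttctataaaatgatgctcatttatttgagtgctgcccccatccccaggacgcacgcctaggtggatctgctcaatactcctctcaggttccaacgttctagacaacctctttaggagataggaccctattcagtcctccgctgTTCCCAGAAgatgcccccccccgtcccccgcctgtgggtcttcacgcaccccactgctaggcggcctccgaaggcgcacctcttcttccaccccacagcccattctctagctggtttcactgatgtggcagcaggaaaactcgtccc

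In these windows Gbp2 held the first motif once, as TTCNNTTTC, Psmb8 held TTCNNNGAA once, and Tgtp1 held each motif once, without overlap. Each window is 300 bases long. GAAANNGAA was in the windows of 10 of 20 matched genes of the interferon list and in 713 of 8323 matched tested genes (8.57%). TTCNNNGAA was in 5 of the 20 and in 666 of the 8323 (8.00%). All 3 windows shown are from lower genes with a match. Within the list, Psmb9 and Tap1 were lower (-0.41 and -0.35) and held neither motif. Isg15, higher at 0.49, held the first motif 3 times. Whether matches go with direction was not tested. A match describes the letters and is not a binding site.

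The 3 GTPases among those 15 lower genes were picked for their small p. Gbp2 read 4.27, 4.68 and 4.70 FPKM in WT and 2.40, 3.36 and 2.54 FPKM in Bmal1hep-/-, a difference of -0.57 ± 0.16. Gbp4 read 4.09, 6.31 and 5.36 FPKM in WT and 2.65, 3.68 and 2.19 FPKM in Bmal1hep-/-, a difference of -0.71 ± 0.23. Tgtp1 read 1.60, 2.52 and 2.00 FPKM in WT and 0.605, 1.31 and 0.884 FPKM in Bmal1hep-/-, a difference of -0.66 ± 0.23. All 3 were separated. Psmb8, a catalytic subunit of the immunoproteasome, read 7.60, 10.4 and 7.74 FPKM in WT and 4.96, 6.21 and 5.24 FPKM in Bmal1hep-/-, again with no overlap. Gbp3 differed by -0.33 ± 0.16 and was separated, and Iigp1, another GTPase, differed by -0.49 ± 0.25 with overlap. These GTPases have close paralogs, and how the authors' counting split shared reads is not given, so each single value is uncertain.

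Not every interferon-responsive gene followed. Of 24 tested members of the interferon and class I list, 17 were lower and 7 higher, and 4 (16.7%) were separated, all lower, where 5.79% of all genes were. At an unadjusted p under 0.05 in limma 3 were lower and 0 higher, and 0 passed after adjustment. Isg15, an interferon-induced ubiquitin-like protein chosen with its values known, ranged from 1.85 to 3.42 FPKM among WT samples and from 3.34 to 6.03 among Bmal1hep-/- samples, a difference of 0.49 ± 0.30. The list's median was -0.15 at ZT0 and 0.17 in the mean of the other times, and it was -0.09 without Bmal1hep-/- replicate 1. Gbp2 had a mean of 0.11 at the other times, and the test of ZT0 against them gave an adjusted p of 0.999958 in limma (0.000761 before adjustment). Gbp2 came first by p among the lower genes of that test, so its small unadjusted p follows from the choice.

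The tested macrophage markers all had lower means in Bmal1hep-/- samples. Csf1r, the receptor that macrophages need to survive, read 5.61, 5.94 and 6.53 FPKM in WT and 3.04, 3.73 and 3.61 FPKM in Bmal1hep-/-. C1qb, a complement subunit, read 13.9, 12.6 and 14.6 FPKM in WT and 9.37, 11.2 and 8.37 FPKM in Bmal1hep-/-. The mannose receptor Mrc1 and the endotoxin co-receptor Cd14 were separated too, with differences of -0.45 ± 0.32 and -0.50 ± 0.22. All 8 tested markers of 9 were lower and 6 (75.0%) were separated, where 5.79% of all genes were separated and lower. Their median was -0.46 at ZT0, and between -0.55 and -0.34 without any 1 of the 6 samples. It was 0.01 in the mean of the other times, which can average opposite signs. C1qb ran from -0.49 at ZT16 to 0.73 at ZT20, and Cd14 from -0.29 at ZT16 to 0.49 at ZT4. The summed FPKM of the 9 markers ranged from 89.8 to 103 among WT samples and from 55.3 to 75.0 among Bmal1hep-/- samples, and none was at 0. In whole muscle, fewer cells of a type and less of an mRNA in each cell cannot be told apart. The separated interferon genes were lower in the same samples, and the part of macrophage content in them was not tested.

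Fibroblast and matrix genes stood lower in the same samples. Lum, a collagen-binding proteoglycan, read 15.8, 12.1 and 14.6 FPKM in WT and 8.02, 9.70 and 9.81 FPKM in Bmal1hep-/-, and Pdgfra, the receptor that marks fibro-adipogenic progenitors, read 5.72, 4.96 and 4.86 FPKM in WT and 3.38, 3.88 and 3.52 FPKM in Bmal1hep-/-. Both were separated, as was the matrix protein Dpt (-0.36 ± 0.25), while Cd34 overlapped (-0.25 ± 0.16). All 9 markers were lower and 5 (55.6%) were separated, where 5.79% of all genes were separated and lower. Their median was -0.40, beside -0.11 at the other times, and -0.24 without Bmal1hep-/- replicate 1. Their summed FPKM ranged from 822 to 1001 among WT samples and from 566 to 791 among Bmal1hep-/- samples, with none at 0.

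Of 25 matrix genes 22 were lower, 6 of them separated (24%, beside 5.79% of all genes), with a median of -0.26. Without WT replicate 1 the median was -0.09. Fn1, fibronectin, read 17.4, 11.9 and 13.7 FPKM in WT and 6.03, 9.78 and 8.83 FPKM in Bmal1hep-/-, and the fibrillar collagen Col5a2 read 8.78, 5.67 and 6.32 FPKM in WT and 3.57, 4.50 and 5.45 FPKM in Bmal1hep-/-. WT replicate 1 was the highest sample in both. The microfibril gene Fbn1 differed by -0.56 ± 0.30 and Col14a1 by -0.46 ± 0.27. In WT replicate 1, levels also leaned furthest towards long transcripts, with Spearman's rho of 0.216 across genes against -0.053 to 0.027 in the other 5 samples. With each sample's trend with length removed, the matrix median was -0.24.

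Tendon genes were lower too, and at other times as well. Tnmd, a tendon membrane protein, read 8.48, 5.01 and 4.64 FPKM in WT and 1.24, 3.17 and 1.85 FPKM in Bmal1hep-/-, a difference of -1.20 ± 0.56, and the matrix protein Comp differed by -0.98 ± 0.63. All 7 tested markers were lower, 2 were separated (28.6%, beside 5.79% of all genes), and the median of -0.80 stood beside -0.88 at the other times. The median was -0.45 without Bmal1hep-/- replicate 1 and -1.10 without Bmal1hep-/- replicate 2. The summed FPKM ranged from 101 to 134 among WT samples and from 46.8 to 95.9 among Bmal1hep-/- samples, with no marker at 0. The amount of tendon taken with the muscle is not given, and its part in the matrix values was not tested. The summed FPKM of endothelial markers ranged from 136 to 170 among WT samples and from 140 to 148 among Bmal1hep-/- samples, and their median of -0.12 was -0.02 without WT replicate 1.

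Most fat and liver markers lay the other way. Of 9 tested adipocyte markers 8 were higher and 1 was separated and higher (11.1%, beside 6.55% of all genes). Their median of 0.40 was 0.18 without Bmal1hep-/- replicate 3 and 0.75 without Bmal1hep-/- replicate 1. At the other times the adipocyte median was 0.38. Adipoq, the adipocyte hormone adiponectin, read 4.48, 2.47 and 6.97 FPKM in WT and 4.26, 7.05 and 15.5 FPKM in Bmal1hep-/-, with overlap. The summed FPKM of the 10 adipocyte markers ranged from 1829 to 2042 among WT samples and from 1878 to 2288 among Bmal1hep-/- samples, and none was at 0 in every sample. Car3 and Fabp4 made up most of this sum, so it does not follow Adipoq or Cfd. Bmal1hep-/- replicate 3 had the sum of 1878, with the lowest Car3 (1180 FPKM) and the highest Adipoq and Cfd (15.5 and 189 FPKM). All 6 tested hepatocyte markers of 12 were higher and 0 were separated, with a median of 0.42 that was 0.10 without Bmal1hep-/- replicate 2 and 0.86 without Bmal1hep-/- replicate 1. It was -0.46 at the other times. The summed FPKM of the 12 ranged from 15.3 to 31.3 among WT samples and from 14.5 to 45.6 among Bmal1hep-/- samples. This sum does not follow Alb. The highest, in Bmal1hep-/- replicate 3, was mostly Trf, Hp and Cyp2e1 (17.6, 13.6 and 12.4 FPKM), with Alb at 0.312 FPKM. Those 3 genes were highest in replicate 3 among WT samples too. The part of fat or liver mRNA in the other values was not tested.

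**Figure D3:**
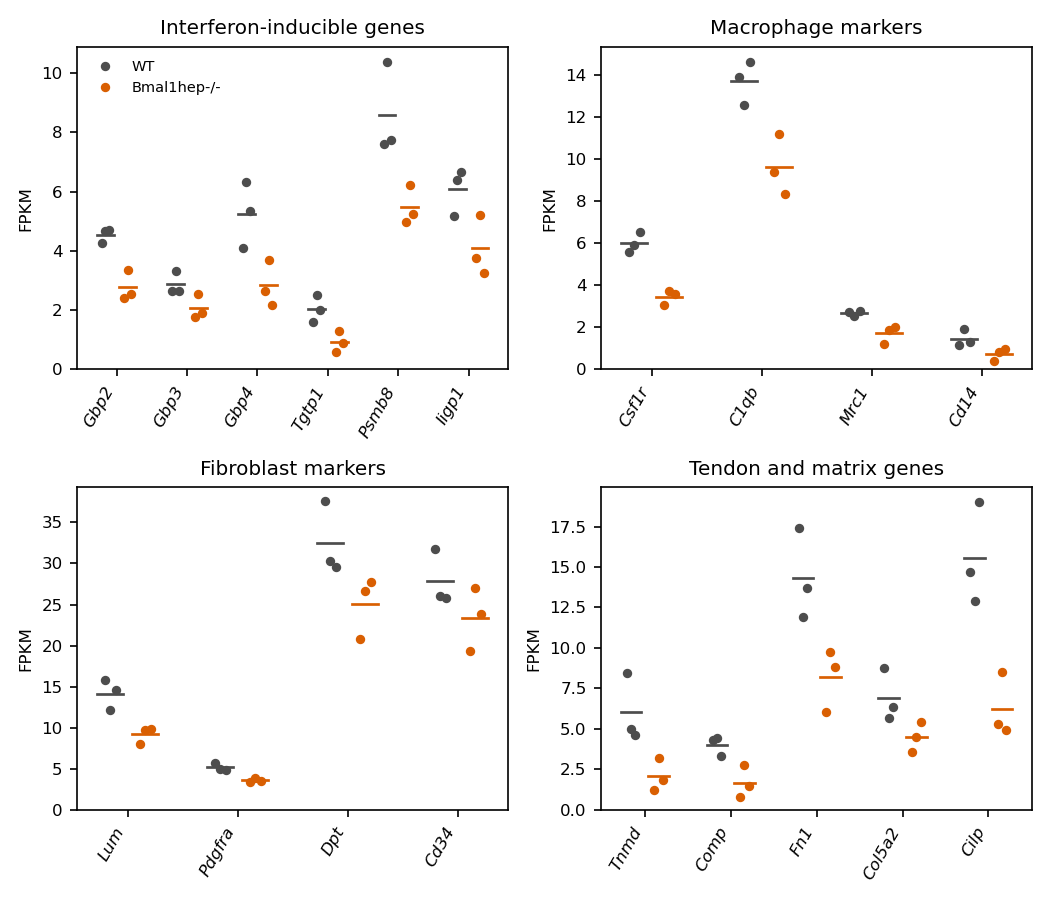
Points are the FPKM values of each ZT0 sample for interferon-inducible, macrophage, fibroblast, and tendon and matrix genes, WT in grey and Bmal1hep-/- in orange, with a bar at each group's mean. The genes were picked for a small p, most of them within their list, so their lower Bmal1hep-/- means follow from the choice, and the 7 of 24 interferon genes that were higher are not shown. Iigp1 and Cd34 overlap.

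Neither fibre-type list kept its median away from 0 under every setting. Actn3, the alpha-actinin of fast fibres, read 3155, 3311 and 3467 FPKM in WT and 3762, 3998 and 3792 FPKM in Bmal1hep-/-, a difference of 0.22 ± 0.12 that was -0.090 with quantile normalization. Tnnt3, fast troponin T, differed by 0.20 ± 0.19 and was separated, and Tpm1, a tropomyosin, by 0.17 ± 0.15 with overlap. Of 16 fast-fibre genes, which include Myh4 at 0 FPKM, 14 were higher, 5 of them separated (31.2%, beside 6.55% of all genes). Their median of 0.14 was 0.10 to 0.19 without any 1 ZT0 sample, and 0 to 2 decimals with quantile normalization. Because that setting gives equal ranks the same value in every sample, it cannot decide the direction of genes this abundant. Myh1, the myosin of type IIx fibres, ran the other way, with 602, 665 and 467 FPKM in WT and 500, 353 and 378 FPKM in Bmal1hep-/-. Myh2, the myosin of oxidative type IIa fibres, read 412, 401 and 316 FPKM in WT and 283, 222 and 317 FPKM in Bmal1hep-/-. These 2 myosins overlapped between genotypes. How any reads they share with the myosin Myh4, listed at 0 FPKM, were assigned is not given, so their levels are uncertain too. Of 14 slow and oxidative fibre genes 11 were lower and 1 was separated (7.14%, near the 5.79% of all genes), and Mb, myoglobin, differed by -0.21 ± 0.30. Their median was -0.13, but 0.00 without WT replicate 2 and -0.34 without WT replicate 1.

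Fatty acid oxidation genes differed by small amounts. Decr1, which reduces unsaturated fatty acids for oxidation, read 40.2, 42.6 and 38.8 FPKM in WT and 36.4, 32.2 and 34.8 FPKM in Bmal1hep-/-, a difference of -0.23 ± 0.11. Acadvl, the very long chain acyl-CoA dehydrogenase, differed by -0.20 ± 0.14, and both were separated. Cpt2, which frees fatty acids from carnitine inside mitochondria, differed by -0.21 ± 0.11 and Hadha, of the trifunctional protein, by -0.15 ± 0.11. Of 25 genes 22 were lower and 3 were separated (12.0%, beside 5.79% of all genes), with 0 at an unadjusted p under 0.05 in limma. The median of -0.11 was -0.05 without Bmal1hep-/- replicate 2 and -0.18 without Bmal1hep-/- replicate 1, and it stood at -0.09 at the other times. The thioesterase Acot2, a PPAR target, differed by -0.43 ± 0.17 with overlap.

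The citrate cycle showed smaller values. Mdh1, cytosolic malate dehydrogenase, read 264, 280 and 255 FPKM in WT and 243, 213 and 234 FPKM in Bmal1hep-/-. Cs, citrate synthase, differed by -0.10 ± 0.09 and Sdha, a succinate dehydrogenase subunit, by -0.13 ± 0.11. Those 3 were separated, and Pcx, pyruvate carboxylase, lay the other way at 0.20 ± 0.13. Of 24 genes 18 were lower and 5 were separated, all lower (20.8%, beside 5.79% of all genes). The median of -0.04 was 0.01 without WT replicate 2, -0.07 without WT replicate 3 and -0.08 with quantile normalization. Genes of complex I, complex IV and ATP synthase had medians of 0.02, 0.01 and 0.02, and each of these was negative with quantile normalization (-0.03, -0.04 and -0.04).

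Medians of protein synthesis and breakdown genes lay close to 0. Rpl10, a protein of the large ribosomal subunit, read 539, 624 and 610 FPKM in WT and 714, 716 and 647 FPKM in Bmal1hep-/-. Of 80 cytosolic ribosome genes 66 were higher but 2 were separated and higher, 2.50% where 6.55% of all genes were. Their median of 0.08 was -0.01 without WT replicate 1 and 0.03 with quantile normalization. Of 31 proteasome genes 26 were higher and 2 were separated (6.45%, near the 6.55% of all genes), with a median of 0.06 that was 0.02 without WT replicate 1 and 0.01 with quantile normalization. Psma7, a proteasome core subunit, differed by 0.24 ± 0.13. Fbxo32, the muscle ubiquitin ligase atrogin-1, read 59.5, 52.2 and 59.7 FPKM in WT and 65.6, 78.6 and 74.0 FPKM in Bmal1hep-/-, a separated difference of 0.34 ± 0.23. Of 24 atrophy and FOXO genes 17 were higher and 4 were separated (16.7%, beside 6.55% of all genes), with a median of 0.04 that was 0.02 without WT replicate 2 or with quantile normalization and 0.08 without Bmal1hep-/- replicate 1.

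Genes of the synapse and of secreted factors are given next. Etv5, a transcription factor of the neuromuscular junction, read 5.81, 5.74 and 4.93 FPKM in WT and 4.01, 4.89 and 4.14 FPKM in Bmal1hep-/-, and Colq, which anchors acetylcholinesterase, differed by -0.23 ± 0.16. Both were separated. The receptor subunit Chrnb1 lay the other way at 0.21 ± 0.13. Of 17 junction genes 13 were lower and 3 were separated (17.6%, beside 5.79% of all genes), with a median of -0.13. Of 17 growth factors and myokines 11 were lower and 5 were separated, all lower (29.4%, beside 5.79% of all genes). Igfbp6, an IGF-binding protein, read 45.4, 39.3 and 49.9 FPKM in WT and 29.9, 35.4 and 33.4 FPKM in Bmal1hep-/-, and the growth factor Fgf1 and the secreted Fstl1 were separated at -0.28 ± 0.18 and -0.38 ± 0.26. The cytokine Il15 differed by -0.40 ± 0.15 with overlap. The median of this list, -0.10, was -0.04 without WT replicate 1 and -0.19 without WT replicate 3.

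Glucocorticoid and nutrient genes varied between samples. Fkbp5, a glucocorticoid-induced chaperone, read 11.9, 12.6 and 15.9 FPKM in WT and 24.1, 12.8 and 21.3 FPKM in Bmal1hep-/-, with overlap. The list it belongs to had 10 members higher and 10 lower. Slc7a5 and Slc7a6, amino acid transporters, were separated at 0.33 ± 0.19 and 0.29 ± 0.12, while the transporter Slc38a10 lay at -0.25 ± 0.12 with overlap. Of 22 amino acid transport and polyamine genes 15 were higher and 7 lower, with a median of 0.08. Separated were 3 higher (13.6%, beside 6.55% of all genes) and 1 lower (4.55%, near the 5.79% of all genes). Chac1, which breaks down glutathione and is induced by amino acid shortage, read 9.53, 5.20 and 4.99 FPKM in WT and 3.80, 6.86 and 39.9 FPKM in Bmal1hep-/-. Its difference of 0.66 ± 0.63 rested on replicate 3, without which it was -0.25.

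Rn45s, the ribosomal RNA precursor, was higher in every Bmal1hep-/- sample. It read 2206, 2219 and 2639 FPKM in WT and 4880, 4025 and 5184 FPKM in Bmal1hep-/-, a difference of 0.99 ± 0.40 with an adjusted p of 0.999848 in limma on 36 samples and 0.158 on the 6. Snora81, a small nucleolar RNA chosen with its values known, was listed at 305, 1194 and 312 FPKM in WT and at 0 FPKM in all 3 Bmal1hep-/- samples. Neither is an ordinary polyadenylated mRNA, while the libraries were made by poly-T capture, and the part of ribosomal RNA carry-over was not tested. The Snora81 difference of -8.92 was the most negative of all tested genes, yet it was not among the 15 lower genes of smallest p. No fold is given for Snora81.

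ZT0 was last set against the other 5 times with a contrast that shares no sample between its sides. limma called 0 (0%) of the 10837 genes, with a smallest adjusted p of 0.999958, and gave 87 higher and 90 lower genes at an unadjusted p under 0.05. Mrps22, a mitochondrial ribosomal protein, read 14.9, 15.2 and 14.8 FPKM in WT and 11.7, 12.2 and 13.9 FPKM in Bmal1hep-/-, a difference of -0.24 ± 0.09 at ZT0 beside a mean of 0.10 at the other times. Trim21, an intracellular antibody receptor, differed by -0.35 ± 0.13 beside 0.10. On the higher side, Arid5b, a chromatin-binding factor, differed by 0.32 ± 0.16 beside -0.20, and the survival gene Bcl2l2 by 0.18 ± 0.09 beside -0.11. Ass1, a urea cycle enzyme, was listed near 0 FPKM in 2 WT samples and at 0.872 FPKM in the third, against 1.28 to 1.56 FPKM in Bmal1hep-/-. Alb differed by 0.92 ± 0.65, which rests on the 1 sample named above. Of the 238 genes with an unadjusted p under 0.05 at ZT0, 175 (73.5%) had the same sign in the mean of the other times, beside 56.9% of all genes.

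**Figure D4:**
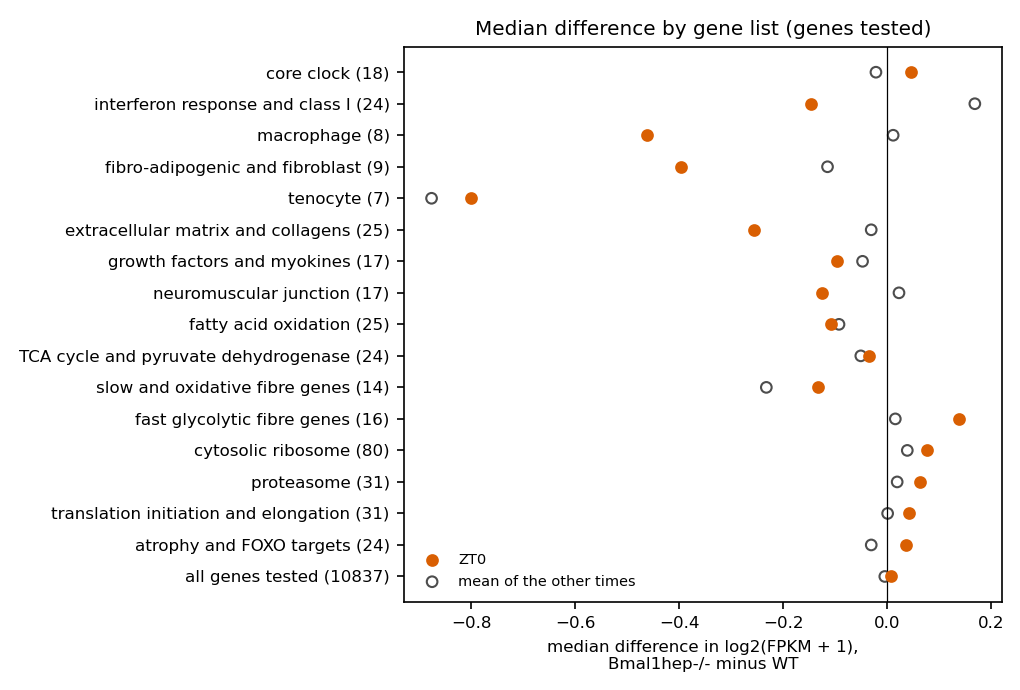
Filled points give the median difference in log2(FPKM + 1), Bmal1hep-/- minus WT, of each gene list at ZT0, and open circles the same for the mean of the other 5 times, with the number of tested genes in brackets. Macrophage markers stand at -0.46 and 0.01, the interferon list at -0.15 and 0.17, and tendon markers at -0.80 and -0.88. An open circle can average opposite signs: the macrophage marker C1qb ran from -0.49 at ZT16 to 0.73 at ZT20. The fast-fibre median of 0.14 is 0 to 2 decimals with quantile normalization, which cannot decide the direction of genes this abundant.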

How the data were processed

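Poly(A) RNA of gastrocnemius was sequenced in 36 samples, 6 of them at ZT0. The authors deposited 1 table of FPKM for 24319 gene symbols. Per the submitters' processing notes, tools named are STAR (alignment) and FastQC 0.11.8, and builds named are mm10 and GRCm39. The FPKM tool, its annotation, strandedness and treatment of multi-mapping reads were not given in the sources used here. FPKM depends on the other transcripts of a sample and on the annotated lengths.

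Values were log2(FPKM + 1) for the 10837 genes averaging 1 FPKM or more over all 36 samples. limma 3.58.1 in R 4.3.3 fitted 12 group means with 24 residual degrees of freedom (eBayes, trend and robust), which assumes that ZT0 samples vary like the others. They varied less. Root mean square deviations from the group mean were 0.164 (WT) and 0.159 (Bmal1hep-/-) at ZT0, beside 0.194 and 0.245 at the other times. Adjustment was by Benjamini-Hochberg over all tested genes, at a threshold of 0.05. P-values and SEs rest on the spread between the 3 replicates of a group, pooled over the 12 groups. The fit was tested on simulated data. Low-value steps for relative depth came from 6015 genes under 0.3 FPKM, and 15 of 15 pairs of samples fitted within a log2 value of 0.05. No samples were identical. Same-numbered replicates did not deviate together (correlations of -0.228, -0.112 and -0.057), so the numbers were not used as pairs.

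Genes named are the 15 of smallest p in each direction, 8 each way against the other times, all core clock genes, up to 4 of smallest p in each list described, Arntl and Rn45s, without predicted genes. A few genes picked by this rule are not reported here. Members and lists were chosen with earlier results of these data known. Alternatives were the pseudocount, filters on level, 2 scalings, array weights, fewer samples, a replicate block, removal of a transcript length trend and leaving out each ZT0 sample. Promoter windows came from RefSeq (GRCm38.p6) and lengths from GENCODE, matched by symbol. Python 3.11.15, pandas 2.3.3, numpy 2.4.6 and matplotlib 3.10.9 were used.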

Additional observations from a re-analysis of the deposited data

How the results depend on the processing

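No gene passed an adjusted p of 0.05 in limma at ZT0, or in ZT0 against the other times, under a pseudocount of 0.1, quantile normalization, rescaling by median of ratios, a stricter filter (5 FPKM), array weights, the fit without the 6 samples of other times that stood apart, removal of the length trend, or any fit without 1 ZT0 sample. The exception was no filter on level, where 1 predicted gene passed at ZT0 and 1 against the other times. The replicate block also gave 0, with 140 higher and 110 lower genes at an unadjusted p under 0.05 in the fit of 36 samples, and 251 and 323 in the fit of 6. Array weights gave 451 and 370. Of the named genes whose difference exceeded its SE, 2 turned sign: Actn3 was -0.090 with quantile normalization, and Chac1 was -0.25 without Bmal1hep-/- replicate 3, at the low end of a range of -0.25 to 1.29 over the fits without 1 sample; the cause was not tested for Actn3. Named genes with a difference at or under its SE were kept apart here, and 58 of their 1189 alternative values had the other sign. The counts of higher and lower genes in each list go by sign alone and include such small differences. Read totals are unknown, so no counting error can be given. The median half-width of the unadjusted interval was 0.30, so for a typical gene smaller differences could not be told from no difference. Larger differences at ZT0, such as Cilp at -1.21, did not pass the adjusted threshold in the fit of 36 samples either.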
